A study of Solanum lycopersicum with 2 samples.

Results

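The genes described here are the Aux/IAA and auxin response factor (ARF) genes of tomato, followed gene by gene through the cells of the M82 root. They were taken from a list of 39 gene identifiers, of which 21 were listed as Aux/IAA genes and 18 as ARF genes. The count tables held 37 of the 39, or 20 Aux/IAA and 17 ARF genes, among 34716 genes in all, and Solyc07g008020 and Solyc04g084210 were not analysed here. The family of each gene is that of the list. The count tables and the gene table used here pair the identifiers with no gene names, so the members are called by identifier, and no sequences are shown.

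Aux/IAA proteins are repressors that auxin removes. In the presence of auxin, receptors of the TIR1 type bind Aux/IAA proteins and mark them for degradation. ARF proteins are the transcription factors that bind the promoters of auxin-regulated genes. Without auxin, Aux/IAA proteins dimerise with activating ARF proteins and bring in co-repressors of the TOPLESS type, so a cell's response depends on which repressors and which factors it holds together. Many Aux/IAA genes are themselves switched on by auxin, and in roots auxin guides cell division, vascular patterning and the formation of lateral roots and root hairs.

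Transcripts were counted by single-cell RNA sequencing in protoplasts from the last 3 cm of primary roots of M82 seedlings, grown for 7 days. Protoplasts are cells whose walls were digested by enzymes. Both libraries, replicates 1 and 2, belonged to 1 group, so no treatment or genotype was compared, and comparisons set cells of the same libraries against each other. The study calls the libraries biological replicates, each from many pooled roots. The p-values rest on how counts summed over cell clusters varied between these 2 libraries, beyond the overall library difference. That spread was estimated over all clusters together.

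Replicate 1 was the deeper library, with 187215851 UMIs (unique molecular identifiers, 1 for each transcript caught) in 12481 barcodes, against 81175339 UMIs in 10253 barcodes in replicate 2. After filters on cells, 12403 and 10231 cells remained, with medians of 8068 and 3801 UMIs. Of the barcode sequences kept, 37 occurred in both libraries. Cells were grouped into 27 clusters without use of the members, and 4 clusters were named from marker genes. All 4 endodermis markers were highest in an endodermis-like cluster (289 and 424 cells in replicates 1 and 2). All 10 exodermis markers were highest in an exodermis-like cluster (106 and 306 cells). The other named clusters were a dividing-like cluster (350 and 192 cells) and a xylem-like cluster (132 and 152 cells). By the mean of both libraries, all 3 dividing markers found in the counts were highest in the dividing-like cluster. In replicate 1 alone, the dividing marker Solyc06g073610 was slightly higher in another cluster. Of the 3 xylem markers, Solyc01g087210 was highest in another cluster. The 10 exodermis markers are suberin genes that the study picked partly for their restricted expression in these same libraries. Their shared peak was therefore largely set by that choice and adds little support for the name. Median depth was low in the exodermis-like cluster, at 0.255 and 0.397 times that of the library, and high in the dividing-like cluster, at 2.65 and 2.85 times. The other 23 clusters are called by number.

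Aux/IAA transcripts far outnumbered ARF transcripts. Summed over the 20 genes, the Aux/IAA level was 1917 CPM (counts per 1000000 UMIs) in replicate 1 and 2353 CPM in replicate 2. The 17 ARF genes summed to 143.3 and 175.1 CPM, so the Aux/IAA sum was 13.4 times the ARF sum in both libraries. The Aux/IAA sum was above the ARF sum in 27 of 27 clusters in both libraries. UMIs were counted from the 3′ end at 1 per captured molecule, so CPM values were not divided by transcript length.

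A few genes carried most of each family's sum. Solyc09g083290 was the highest Aux/IAA gene, with 394 CPM in replicate 1 and 476 CPM in the other library. The next were Solyc04g076850 with 336 and 396 CPM, Solyc09g083280 with 210.3 and 381 CPM, Solyc01g097290 with 226 and 285 CPM, and Solyc06g053840 with 261 and 231 CPM. Ranges over the 2 libraries overlapped between neighbours in this list. Within each library, Solyc09g083290 was the highest and Solyc04g076850 came next, while the order of the last 3 differed between the libraries. The next 3, also above 50 CPM in both libraries, were Solyc09g065850 (159 and 158 CPM), Solyc06g053830 (82.3 and 83.6 CPM) and Solyc03g120390 (64.9 and 82.9 CPM). The highest 3 Aux/IAA genes of each library held 51.7% and 53.2% of the Aux/IAA sum.

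The ARF genes lay lower and fell into a leading set and a tail. Solyc07g016180 had 26.0 and 34.9 CPM, Solyc01g103050 had 19.8 and 37.1 CPM, Solyc11g069500 had 33.5 and 23.3 CPM, and Solyc09g007810 had 26.5 and 27.6 CPM. These 4 ARF genes overlapped in level, and all lay above the fifth, Solyc03g031970, at 10.2 and 7.02 CPM. Of the other 12, Solyc07g042260 had the highest mean, from 6.40 and 7.62 CPM.

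No member was at 0 in either library. The lowest was the Aux/IAA gene Solyc06g066020, with 11 UMIs in replicate 1 and 8 in replicate 2. The ARF gene Solyc08g082630 had 16 and 17 UMIs, and the ARF gene Solyc12g006340 had 39 and 43. These 3 genes were too sparse for the test across clusters and are given only as levels over all cells.

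**Figure D1:**
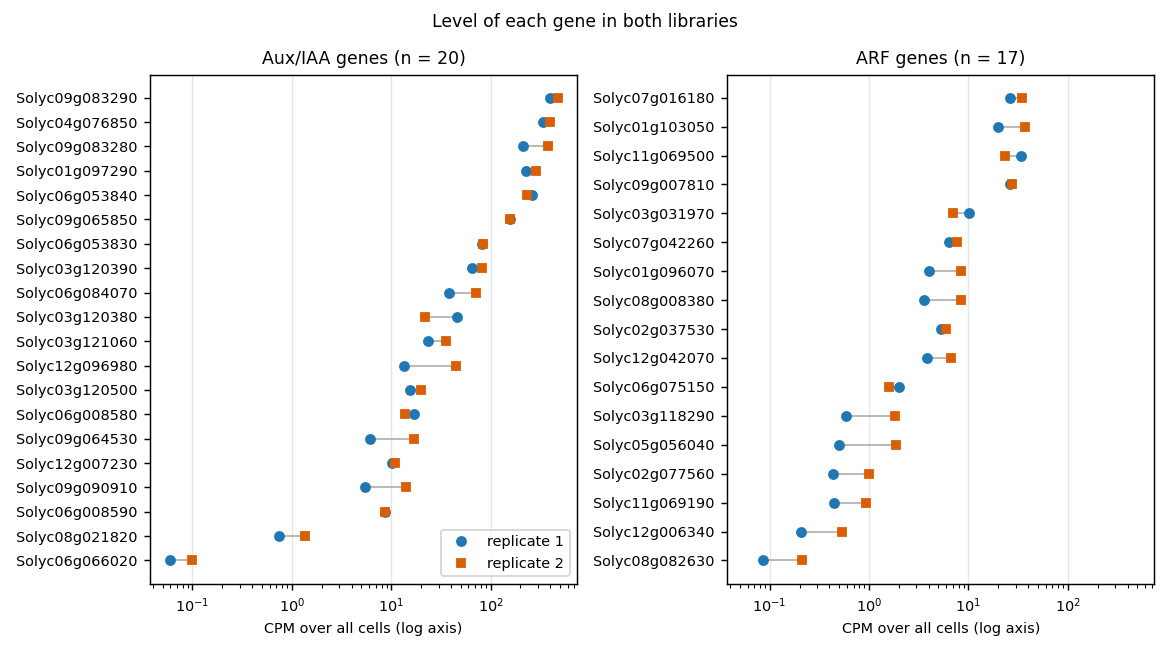
Level of the 20 Aux/IAA genes (left) and the 17 ARF genes (right) in CPM over all cells of a library, on a log axis, with a circle for replicate 1 and a square for replicate 2. The leading 5 Aux/IAA genes sit above 200 CPM in both libraries, while the leading 4 ARF genes sit between 19.8 and 37.1 CPM.

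Some members had different levels in the 2 libraries. Of the 36 members with at least 30 UMIs over both, 11 were more than 2-fold higher in replicate 2, where 21.1% of all 19561 genes with that many UMIs were past that fold in that direction. Only Solyc03g120380, with 45.9 CPM in replicate 1 and 22.0 CPM in replicate 2, was more than 2-fold higher in replicate 1, as were 0.930% of all genes. The median log2 ratio of replicate 1 over replicate 2 was -0.40 over the members and -0.33 over all genes. The median was -0.91 over the 17 ARF genes, of which 8 were past 2-fold, all higher in replicate 2. Over 19 Aux/IAA genes the median was -0.34, and 4 were past 2-fold, 3 of them higher in replicate 2. The gap was wide for the Aux/IAA gene Solyc12g096980, at 13.5 CPM in replicate 1 and 44.8 CPM in replicate 2. With 1 library on each side these ratios had no test.

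Protoplasting, the enzyme step that frees the cells, changes some genes itself. The study lists 821 genes induced by it, and the list holds 2 members, the Aux/IAA genes Solyc03g120380 and Solyc06g084070. Solyc06g084070 had 38.1 and 70.7 CPM. Levels of these 2 genes may include that induction, which was not tested.

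Most cells held an Aux/IAA transcript, and fewer held an ARF transcript. To compare cells at 1 depth, 2000 UMIs were drawn from each of the 10274 and 6990 cells that had as many, which left out 2129 and 3241 shallower cells. At that depth, a UMI of at least 1 Aux/IAA gene was found in 93.6% of the replicate 1 cells and 94.5% of the replicate 2 cells, and UMIs of at least 2 such genes in 78.7% and 79.9%. An ARF gene was seen in 28.1% and 29.9% of cells, and both families together in 26.9% and 28.7%. Without the draw the shares were 99.0% and 95.5% for Aux/IAA genes and 64.9% and 50.0% for ARF genes.

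Single members were seen in smaller shares of these drawn cells. Solyc09g083290 was seen in 53.9% of cells of replicate 1 and 55.5% of replicate 2, and Solyc04g076850 in 50.0% and 51.0%. The highest share of an ARF gene was 7.47% in replicate 1, for Solyc11g069500, and 8.37% in replicate 2, for Solyc01g103050. No cell type is given as lacking these genes, so a background share from free RNA in the droplets could not be set from one. Among clusters with at least 20 drawn cells, the share for Solyc04g076850 ranged down to 23.6% in replicate 1 and 20.0% in replicate 2, and up to 93.9% and 96.9% in the xylem-like cluster. These shares were not alike across clusters.

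The members did not share 1 place in the root. Over the 34 members that were not too sparse, and by the mean of both libraries, 10 (5 Aux/IAA and 5 ARF genes) were highest in cluster 15, 6 (3 and 3) in cluster 13, 4 (3 and 1) in the xylem-like cluster, and the other 14 in 9 further clusters. How often other genes were highest in these clusters was not counted, so the counts are not given as a trait of the members. Of these 34, 21 had the same highest cluster in both libraries. In replicate 1, 23 members had a UMI in every cluster, and in replicate 2 it was 19. Clusters 15 and 13 carry no name, since the lists of the 4 named classes scored highest elsewhere, and their cells were shallow, with median depths of 2308 and 1755.5 UMIs in cluster 15 and 2923 and 1751 UMIs in cluster 13. Across the 27 clusters, the log2 summed level and the log2 median depth had Pearson r of -0.29 and -0.29 for Aux/IAA genes and -0.48 and -0.34 for ARF genes, as a description over clusters of the same 2 libraries.

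Cluster 15 held the highest summed ARF level, 505 CPM in replicate 1 and 520.02 CPM in replicate 2, against 143.3 and 175.1 CPM over all cells. The largest share of it, 37.0% in both libraries, came from Solyc09g007810, at 187 and 192 CPM there, against 26.5 and 27.6 CPM over all cells. The ARF gene Solyc06g075150 was also highest in cluster 15, at 63.7 and 37.1 CPM, against 1.99 and 1.60 CPM over all cells. This gene was sparse, and the cluster held 30.9% and 13.1% of its 372 and 130 UMIs. Solyc11g069500 reached 94.1 and 102.7 CPM in cluster 15 and 121.6 and 87.2 CPM in cluster 0, against 33.5 and 23.3 CPM over all cells.

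In cluster 13 the ARF genes Solyc08g008380 and Solyc01g096070 were highest. Solyc08g008380 had 36.3 and 59.7 CPM there, against 3.58 and 8.39 CPM over all cells. Solyc01g096070 had 46.1 and 57.8 CPM there, against 4.04 and 8.44 CPM over all cells. Few UMIs lay behind these levels in replicate 1. Cluster 13 held 3.89% and 13.4% of the 669 and 681 UMIs of Solyc08g008380. For Solyc01g096070 it held 4.37% and 12.8% of 756 and 685 UMIs. In cluster 5, the Aux/IAA gene Solyc03g121060 reached 201.2 and 260.06 CPM, against 23.3 and 35.9 CPM over all cells, and the cluster held 24.7% and 31.1% of its UMIs. The ARF gene Solyc07g042260 peaked in the same cluster, at 48.5 and 62.6 CPM, against 6.40 and 7.62 CPM over all cells. Cluster 9 held 43.6% and 53.9% of the UMIs of the Aux/IAA gene Solyc12g096980, at 174.01 and 341 CPM. For these 5 genes the level in the highest cluster was at least 6.84 times that of the library in both libraries.

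**Figure D2:**
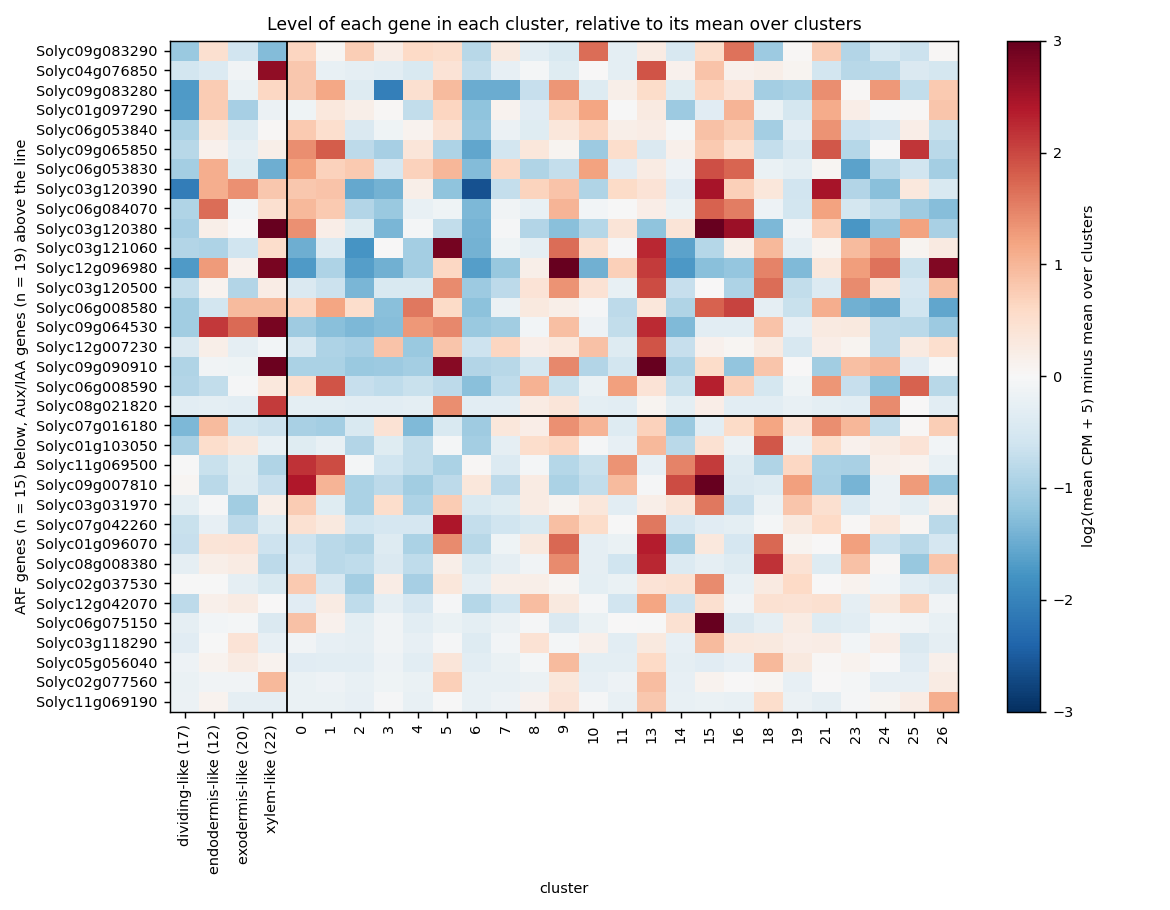
Level of the 19 Aux/IAA genes (above the line) and 15 ARF genes (below it) that passed the filter on low counts, in the 27 clusters, as log2 of the mean CPM of both libraries plus 5, minus the gene's mean over clusters, with colours ending at 3 and -3. The xylem-like column is dark red for Solyc04g076850, Solyc03g120380, Solyc12g096980, Solyc09g064530 and Solyc09g090910, the dividing-like column is blue for Solyc12g096980 and Solyc03g120390, and cluster 15 is dark red for Solyc09g007810 and Solyc06g075150.

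The likeness of 2 members was measured as the correlation of log2(CPM + 5) over the 27 clusters within each library. The most alike pair was the ARF genes Solyc11g069500 and Solyc09g007810, with Pearson r of 0.89 in replicate 1 and 0.88 in replicate 2. The Aux/IAA gene Solyc09g090910 and the ARF gene Solyc02g077560 followed with 0.78 and 0.77. Solyc02g077560 had only 82 and 81 UMIs over all cells, so the values of that pair rest on few counts. The Aux/IAA genes Solyc06g053830 and Solyc09g083290 had 0.83 and 0.77, the ARF genes Solyc08g008380 and Solyc01g096070 had 0.76 and 0.87, and the Aux/IAA genes Solyc03g121060 and Solyc03g120500 had 0.82 and 0.75. The clusters share libraries and depths, so these values are descriptions and carry no test. Only 1 of these 5 pairs joined a repressor with a factor.

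Each named cluster was then set against the mean of the other 26 clusters in 1 model over both libraries, with edgeR's quasi-likelihood test and Benjamini-Hochberg adjustment over 17300 genes at a threshold of 0.05. Of the 37 members, 34 passed the filter on low counts, and 27 of those were past the threshold in at least 1 of the 4 clusters, where 69.6% of all genes tested were. The fold change is a mean over clusters of equal weight, while levels below are given for the named cluster and for all other cells together.

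In the xylem-like cluster, of 19 Aux/IAA genes tested, 9 were higher and 2 lower, and of 15 ARF genes, 1 was higher and 3 lower. Together 10 of 34 members were higher, where 14.8% of all genes tested were, and 5 were lower, where 11.0% were. The median log2 fold change was 0.69 over the Aux/IAA genes and -0.81 over the ARF genes, against -0.077 over all genes.

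The largest fold change was that of the Aux/IAA gene Solyc08g021820, which in the xylem-like cluster had 17.4 CPM (replicate 1) and 26.1 CPM (replicate 2), against 0.541 and 1.01 CPM in all other cells. The log2 fold change of this gene was 6.54, with an SE of 0.47 (edgeR adjusted p = 1.77e-12), and SEs follow the ± sign from here on. The cluster, a small one, held 28.1% and 26.4% of its 139 and 110 UMIs.

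Solyc09g090910, an Aux/IAA gene, had 83.9 and 104.4 CPM in the xylem-like cluster, against 4.53 and 12.8 CPM in all other cells. Its log2 fold change was 4.27 ± 0.23 (edgeR adjusted p = 4.52e-18), and it was high in cluster 13 too, at 62.9 and 133.9 CPM. Solyc03g120380, the Aux/IAA gene on the protoplasting list, had 582 and 243 CPM in the xylem-like cluster, against 39.4 and 18.9 CPM in the remaining cells (log2 fold change 4.07 ± 0.22, edgeR adjusted p = 5.52e-18). It was also high in cluster 15, at 542 and 422 CPM.

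The most abundant transcript there was the Aux/IAA gene Solyc04g076850, at 2397 and 2357 CPM in the xylem-like cluster, against 310.9 and 368 CPM in all other cells. Its log2 fold change was 2.75 ± 0.12 (edgeR adjusted p = 2.40e-20). This 1 gene made up 51.0% and 49.6% of the cluster's summed Aux/IAA level, which at 4696 and 4748 CPM was the highest of the 27 clusters. The remaining higher Aux/IAA genes included Solyc09g064530 (log2 fold change 4.01 ± 0.23) and Solyc12g096980 (3.78 ± 0.27).

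The 1 ARF gene that was higher, Solyc02g077560, rested on 4 and 13 UMIs in the xylem-like cluster, or 1.78 and 11.7 CPM, against 0.422 and 0.850 CPM in the remaining cells (log2 fold change 4.01 ± 0.70, edgeR adjusted p = 3.96e-05). The 3 that were lower were Solyc11g069500, Solyc09g007810 and Solyc07g016180, each among the 4 most abundant ARF genes. Solyc11g069500 had 12.5 and 3.60 CPM in the xylem-like cluster, against 33.8 and 23.5 CPM in the remaining cells (log2 fold change -1.22 ± 0.36, edgeR adjusted p = 0.0110), and without the library term its adjusted p was 0.305. The lower Aux/IAA genes were Solyc06g053830, with 16.5 and 25.2 CPM against 83.1 and 84.5 CPM (log2 fold change -1.78 ± 0.36), and Solyc09g083290, with 111.6 and 185 CPM against 397 and 480 CPM (-1.43 ± 0.21). Solyc09g083290 is the most abundant repressor of the root as a whole, so the leading repressor was another one in these cells. This was not particular to them, since Solyc04g076850 also led in both libraries in the dividing-like and exodermis-like clusters and in several unnamed ones. The 4 endodermis markers summed to 2.68 and 1.80 CPM in the xylem-like cluster, under the medians of 4.60 and 7.97 CPM over the other clusters, and the 10 exodermis markers to 6.69 and 18.9 CPM.

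**Figure D3:**
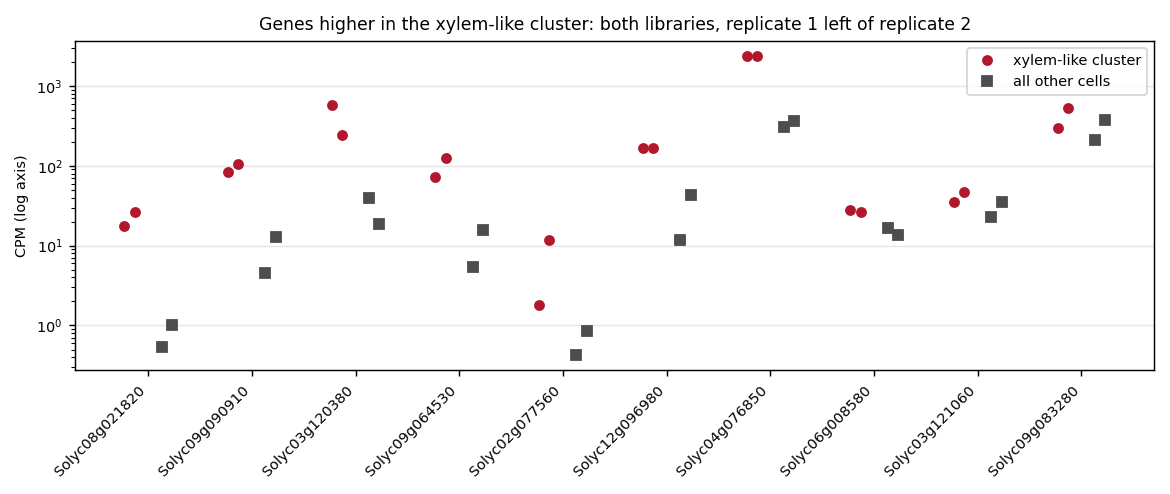
CPM (log axis) of the 10 members past the threshold and higher in the xylem-like cluster, with circles for that cluster and squares for all other cells, replicate 1 left of replicate 2 within each pair. For every gene shown, each library's circle lies above its own square. Solyc04g076850 is the highest, at 2397 and 2357 CPM in the cluster.

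In the endodermis-like cluster, 11 of 34 members were higher, where 17.3% of all genes tested were, and 4 were lower, where 5.17% were. The higher ones were 7 Aux/IAA and 4 ARF genes, and the lower ones 2 of each. The median log2 fold change was 0.28 over the Aux/IAA genes and 0.53 over the ARF genes, against 0.045 over all genes. The endodermis is the innermost layer of the ground tissue, around the vascular cylinder. Without the library term 2 members were lower, not 4, and with genes scaled over both libraries together before clustering 7 were higher, not 11, and 2 lower. The 10 exodermis markers summed to 6.81 and 16.7 CPM in this cluster, and the 3 xylem markers to 171.6 and 155.5 CPM, where the medians of the other clusters were 133.6 and 132.1 CPM.

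The Aux/IAA gene Solyc09g064530 led, with 42.7 and 74.3 CPM in the endodermis-like cluster, against 5.33 and 14.8 CPM in the remaining cells (log2 fold change 3.16 ± 0.23, edgeR adjusted p = 5.86e-14). Solyc12g096980 had 49.8 and 55.9 CPM there, against 12.7 and 44.4 CPM (1.97 ± 0.30), a narrow gap in replicate 2, where cluster 9 held 53.9% of the gene's UMIs. Solyc06g084070, on the protoplasting list, had 138.1 and 208.2 CPM, against 35.7 and 65.1 CPM (1.78 ± 0.24). All 3 are repressors, and among ARF genes Solyc07g016180 was higher with 56.8 and 73.9 CPM, against 25.2 and 33.3 CPM (1.07 ± 0.16, edgeR adjusted p = 1.51e-06).

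The lower members were led by the Aux/IAA gene Solyc03g121060, with 13.4 and 10.1 CPM in the endodermis-like cluster, against 23.5 and 36.9 CPM in the remaining cells (log2 fold change -1.19 ± 0.22). The ARF gene Solyc09g007810 had 9.63 and 7.58 CPM, against 26.9 and 28.4 CPM (-1.10 ± 0.19), and Solyc11g069500 had 12.4 and 8.22 CPM, against 34.0 and 23.9 CPM (-0.91 ± 0.29). The cluster lay below all other cells in both libraries for these 3 genes, which were named for a lower direction in both. The calls of these 3 genes were each lost under at least 1 alternative, given here at the highest adjusted p. Solyc03g121060 had a log2 fold change of -0.40 at clustering resolution 0.5 (edgeR adjusted p = 0.0569), Solyc09g007810 had -0.77 with joint scaling (adjusted p = 0.162), and Solyc11g069500 had -0.96 without the library term (adjusted p = 0.371).

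The exodermis is the outer layer whose suberin the study examines. In the exodermis-like cluster, 3 of 34 members were higher, where 16.4% of all genes tested were, and 6 were lower, where 7.03% were. The median log2 fold change was -0.36 over the Aux/IAA genes and 0.27 over the ARF genes, against 0.0078 over all genes. All 3 that were higher are Aux/IAA genes. Solyc09g064530 had 24.2 and 59.7 CPM in the exodermis-like cluster, against 6.13 and 16.6 CPM in the remaining cells (log2 fold change 2.58 ± 0.35, edgeR adjusted p = 2.98e-07). Solyc06g008580 had 31.7 and 22.3 CPM, against 16.8 and 13.8 CPM (1.44 ± 0.48), and Solyc03g120390 had 147.3 and 249 CPM, against 64.7 and 80.8 CPM (1.41 ± 0.37). Solyc09g064530 was thus higher in 3 of the 4 named clusters, in contrasts that share most of their other clusters, and it was lower in the dividing-like cluster (-1.49 ± 0.43). The 4 endodermis markers summed to 3.73 and 11.1 CPM in the exodermis-like cluster, near their medians of 4.60 and 7.68 CPM over the other clusters.

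The lower members of the exodermis-like cluster were 4 Aux/IAA and 2 ARF genes. The ARF gene Solyc03g031970 had only 1 and 2 UMIs there, or 1.86 and 2.02 CPM, against 10.2 and 7.09 CPM in the remaining cells (log2 fold change -2.23 ± 0.58, edgeR adjusted p = 0.00361). Solyc03g120500 had 7.46 and 9.11 CPM, against 15.4 and 19.9 CPM (-1.28 ± 0.44), and Solyc01g097290 had 134.2 and 119.4 CPM, against 226 and 287 CPM (-1.20 ± 0.20, edgeR adjusted p = 9.82e-06). With DESeq2's size factors 3 members were lower, not 6, and the calls of Solyc03g120500 and Solyc06g008580 were lost under 3 and 2 of 10 alternatives, with adjusted p up to 0.0751 and 0.0842.

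In the dividing-like cluster, 19 of 34 members were lower, where 17.7% of all genes tested were, and 1 was higher, where 25.7% were. The lower members were 14 of 19 Aux/IAA genes and 5 of 15 ARF genes. The median log2 fold change was -0.96 over the Aux/IAA genes and -0.53 over the ARF genes, against 0.0032 over all genes. The count of lower members was 11 without the library term in the model.

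Solyc12g096980 had 0.919 and 3.76 CPM in the dividing-like cluster, against 14.3 and 46.8 CPM in the remaining cells (log2 fold change -2.66 ± 0.55, edgeR adjusted p = 0.000132). Solyc03g120390 had 12.7 and 14.2 CPM, against 68.1 and 86.2 CPM (-2.18 ± 0.49), and Solyc09g083280 had 60.5 and 98.8 CPM, against 219.5 and 395 CPM (-1.52 ± 0.27). These repressors were picked for the lowest fold changes with 1 direction in both libraries, so their separation from all other cells follows largely from that choice. The summed Aux/IAA level was 780.4 and 1031 CPM in the dividing-like cluster, against 1917 and 2353 CPM over all cells. Cluster 6 was as low, at 796 and 951 CPM, and its cells were deep as well, with medians of 33134 and 10691.5 UMIs, and the part of depth in these values was not tested.

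After the draw to 2000 UMIs, 76.0% and 84.3% of the dividing-like cells had an Aux/IAA UMI, against 93.6% and 94.5% of all cells. The 1 higher member, the ARF gene Solyc09g007810, named here after its values were seen, had a log2 fold change of 0.54 ± 0.15 (edgeR adjusted p = 0.00349). Its level was 19.4 and 20.4 CPM in the dividing-like cluster, against 27.0 and 27.9 CPM in all other cells together. It was thus higher only against the mean of the other clusters at equal weight, and its direction there differed between the libraries. The count of higher members was 0 at clustering resolution 2.

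**Figure D4:**
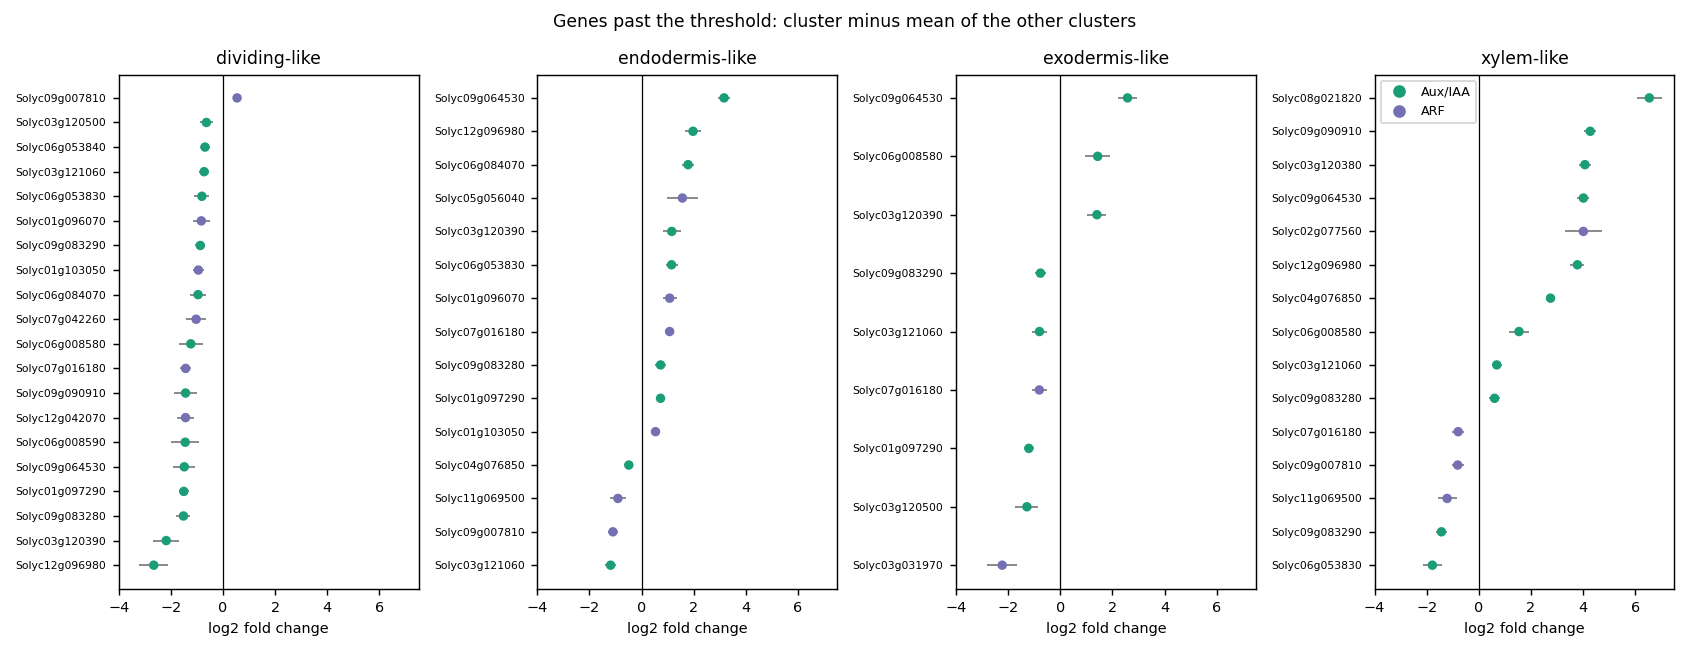
Members past the threshold in each named cluster, as the log2 fold change of the cluster over the mean of the other 26 clusters, with bars for 1 SE, where green marks Aux/IAA genes and violet ARF genes. The dividing-like panel holds 19 of 20 points left of 0, and the xylem-like panel has 10 of 15 points right of 0.

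The 7 tested members past the threshold in none of the 4 clusters were the Aux/IAA genes Solyc09g065850 and Solyc12g007230 and the ARF genes Solyc03g118290, Solyc11g069190, Solyc02g037530, Solyc08g008380 and Solyc06g075150. Solyc09g065850, at 159 and 158 CPM, was the most abundant of them and was highest in cluster 25, at 662 and 659 CPM. Other steps of the pathway were looked at through 1 identifier listed as a TIR1-type receptor and 6 listed as TOPLESS-type co-repressors, which no source used here annotates. The receptor identifier was higher in the endodermis-like cluster, as were 17.3% of all genes, and lower in the exodermis-like cluster, as were 7.03%. Of the 6 co-repressor identifiers, 4 were lower in the dividing-like cluster (17.7% of all genes), 1 was higher in the exodermis-like cluster (16.4%), and 1 was higher (14.8%) and 1 lower (11.0%) in the xylem-like cluster.

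Which repressors and factors shared cells was then described from the cells drawn to 2000 UMIs. For each pair, the share of cells with the ARF gene was taken among cells with the Aux/IAA gene and among cells without it, and the ratio of the 2 shares was the measure. A pair was counted where each gene had at least 100 cells in both libraries, which held for 126 of 340 pairs, formed by 18 Aux/IAA and 7 ARF genes. Pairs of 1 gene use the same cells and are not independent, so the ratios carry no test.

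For most pairs the factor was seen slightly more often in cells with the repressor than in cells without it. The ratio was over 1 in both libraries for 83 of 126 pairs and under 1 in both for 21. Its median was 1.31 in replicate 1 and 1.31 in replicate 2. Among pairs counted, 24 had a ratio over 1.5 in both libraries and 6 over 2. The number of cells with both genes was also set against the number that the shares of the 2 genes would give. With the shares over all cells the median of this second ratio was 1.23 and 1.22, and with each cluster's own shares it was 1.10 and 1.11, with 3 pairs over 1.5 in both libraries. It lay closer to 1 within clusters for 105 of 126 pairs in replicate 1 and for 96 in replicate 2. Within clusters it was over 1 in both libraries for 64 pairs and under 1 in both for 12. Pairs of other genes of like level were not measured.

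The ARF gene Solyc07g042260 was in 4 of the 5 pairs with the highest ratios. With the Aux/IAA gene Solyc09g090910, it was seen in 6.12% and 9.78% of cells with the repressor, against 1.76% and 1.91% of cells without it, ratios of 3.48 and 5.13 from 9 and 27 shared cells. With Solyc03g121060 it was seen in 4.88% and 7.69% of cells, against 1.65% and 1.74%, from 26 and 43 shared cells. Solyc03g121060 and Solyc07g042260 peaked in the same cluster 5, and their second ratio, within clusters, was 1.38 and 1.21. For Solyc09g090910 with Solyc07g042260 the second ratio was 3.36 and 4.41 over all cells, and 1.42 and 1.34 within clusters.

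With Solyc12g096980 the ratios of Solyc07g042260 were 2.72 and 2.92, and with Solyc09g083280 they were 2.18 and 2.36. The fifth pair was Solyc12g096980 with the ARF gene Solyc07g016180, seen in 12.0% and 18.7% of cells with the repressor, against 5.42% and 6.06% of cells without it. Its ratios were 2.21 and 3.08, from 25 and 70 shared cells. Within clusters, the second ratios of these pairs, in the same order, were 1.72 and 1.39, 1.21 and 1.12, and 1.13 and 1.53. A second random draw gave lower ratios in replicate 1 for Solyc12g096980 and Solyc09g083280 with Solyc07g042260, at 1.69 and 1.51. Drawn to 1000 UMIs, the first pair had ratios of 3.24 and 1.97 and the fifth 2.21 and 1.83.

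The ARF genes differed in how they paired. Solyc07g042260 had a ratio over 1 in both libraries with 17 of 18 Aux/IAA genes, and median ratios of 1.67 and 1.99. Solyc07g016180 was over 1 with 13 of 18 and under 1 in both libraries with 0. Solyc09g007810 was over 1 with 9 and under 1 with 8, and Solyc11g069500 was over 1 with 10 and under 1 with 7. The last 2 are the ARF genes with the most alike spread over clusters, and both were low in the xylem-like and endodermis-like clusters, where several repressors were high. Whether this bears on their ratios was not tested.

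**Figure D5:**
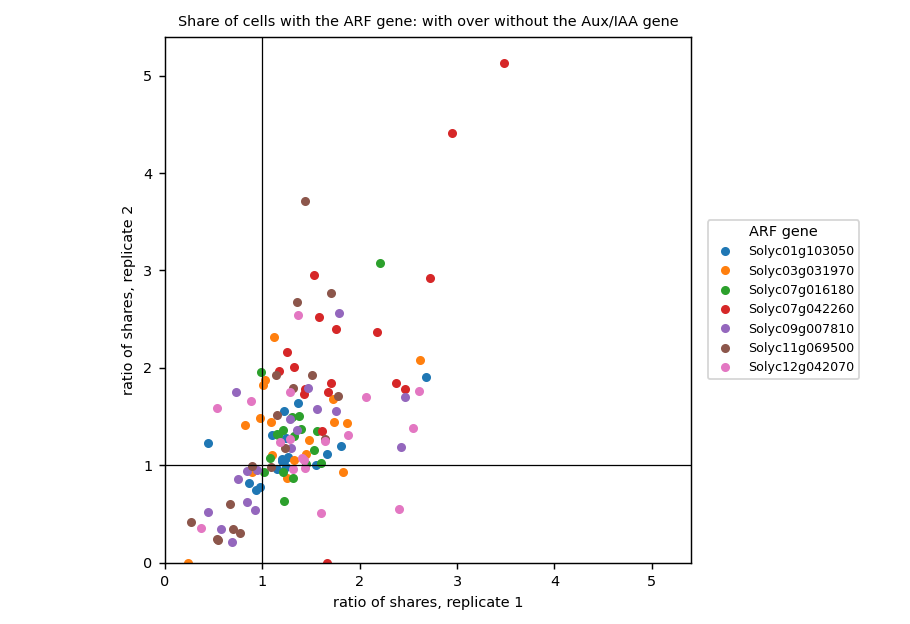
Ratio of the share of cells with an ARF gene among cells with an Aux/IAA gene over that among cells without it, in replicate 1 (x axis) and replicate 2 (y axis), for 126 pairs, coloured by the ARF gene, with lines at 1. The pairs of Solyc07g042260 include the 2 points farthest out, at 3.48 and 5.13 and at 2.95 and 4.42.

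Among the repressors, 4 pairs of genes stood in neighbouring rows of the count tables with consecutive identifiers. Solyc03g120390 was seen in 40.4% and 25.9% of cells with Solyc03g120380, against 12.7% and 10.9% of cells without it, ratios of 3.18 and 2.37. Solyc06g008580 and Solyc06g008590 had ratios of 2.19 and 2.75, from 19 and 11 shared cells. The ratios were 1.31 and 1.33 for Solyc06g053830 and Solyc06g053840, and 1.18 and 1.17 for Solyc09g083280 and Solyc09g083290. Solyc09g083280 and Solyc09g083290 are 2 of the most abundant repressors, yet their levels over clusters had Pearson r of 0.29 and 0.23. The other pairs, in the order above, had r of 0.71 and 0.37, 0.58 and 0.36, and 0.72 and 0.52. Within clusters, the second ratios of the 4 pairs in that order were 1.51 and 1.84, 1.49 and 1.56, 1.15 and 1.14, and 1.09 and 1.07. How reads that match both genes of such a pair were counted was not tested, so these values are uncertain to that extent.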

How the data were processed

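Protoplasts of 2 root libraries were tagged on a 10x droplet platform, which adds a cell barcode and a UMI to the 3′ end of transcripts. The authors aligned reads with cellranger 6.0.1 to tomato build SL4.0 with the ITAG4.1 annotation, and the deposited matrices hold raw counts of UMIs per gene and called cell, not normalized. The members and lists, and most tests, were chosen with earlier results of these data known.

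Cells with at least 500 UMIs and at most 1% of UMIs from organelle genes were kept. No doublet caller was run, and the study's methods name no such step. CPM values are UMIs per 1000000 nuclear UMIs, with protoplasting-induced genes kept in. Clusters came from 2000 variable genes (members, organelle genes and protoplasting-induced genes left out), scaled within each library, 35 principal components, 20 neighbours and Leiden clustering (leidenalg 0.10.2, igraph 0.11.9, resolution 1, seed 1; Python 3.11.15). Scaling within libraries was chosen after joint scaling had left clusters without cells of replicate 1. Cluster names were rebuilt here, and a class was named only where at least 3 of its markers were detected, at the cluster where they scored highest. Phloem had 1 marker and was not named.

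Counts were summed per cluster and library and fitted in edgeR 4.0.16 (TMM, filterByExpr, library as a block, glmQLFTest), each named cluster against the mean of the other 26 clusters at equal weight, with Benjamini-Hochberg adjustment. The block joins sums of the same library. Cells were drawn without replacement to 2000 UMIs for shares. Genes named were the 5 highest of each family, the 3 highest and 3 lowest fold changes per cluster with 1 direction in both libraries, members on the protoplasting list, and the 5 pairs with the highest sharing ratio and likeness. Others were named after their values were seen. Depth limits sparse members, since a count of 0 allows up to 3 UMIs. Alternatives covered clustering resolution (0.5, 2), seed, members as features, at least 1000 UMIs, DESeq2 1.42.0 size factors and Wald test, no low-count filter, no library term, other draws and leaving out each library.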

Additional observations from a re-analysis of the deposited data

How the results depend on the processing

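Of 252 recomputed log2 fold changes of the genes named per cluster, 11 fell short of the threshold and 0 changed sign. The other 241 kept direction, and those of them with a test stayed past the threshold. Values from leaving out a library had no test. Their direction was set beforehand, since these genes were named for 1 direction in both libraries. Without the replicate block 11 members were lower in the dividing-like cluster (19 with it) and 2 in the endodermis-like (4 with it). Members higher in the dividing-like cluster (1) were 2 with the DESeq2 Wald test and with members allowed as features, 0 at resolution 2 and 0 with joint scaling. Leaving out replicate 2 or 1 gave 0 to 1 there. With genes scaled over both libraries together, an alternative added after seeing the data, 7 members were higher in the endodermis-like cluster (11), 2 lower (4), and 3 lower in the exodermis-like cluster (6), also 3 with DESeq2 size factors. As means over cells of CPM per cell, the summed levels were 2614 CPM for Aux/IAA genes (2135) and 202.8 CPM for ARF genes (159.2). Pairs with a sharing ratio over 1 in both libraries (83 of 126) were 39 of 68 at 1000 UMIs, where fewer pairs were counted, 198 of 216 without thinning and 96 of 144 with another draw, and 90 to 98 in 1 library. The causes were not tested, apart from the number of pairs counted. Depth limits the ARF genes most, and Solyc03g031970 in the exodermis-like cluster rested on 3 UMIs.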
